A study of Mus musculus with 6 samples.

Results

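The genes described here are the protocadherin Dchs1, its receptor Fat4, the related cadherin Fat1, the modifying kinase Fjx1, and the planar cell polarity genes Celsr1, Celsr2, Vangl1, Vangl2, Prickle1 and Ptk7. They were taken as the probe sets that the platform annotation assigns to 1 of these symbols alone, with the probe set of the highest mean over all arrays standing for the gene. All 10 genes were measured, among 15027 genes tested. The set was chosen with the differences of the present comparison already known, and Dchs1 in particular was selected on its positive difference, so the differences of the 10 genes are given as a description and carry no test of their own.

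The samples were cells sorted out of mammary tumours of MMTV-Wnt-1 mice, which carry Wnt1 under the promoter of mouse mammary tumour virus, so all samples came from tumours with the transgene. A population labelled tumorigenic was sorted as CD24+Thy+CD45-, and the remaining cells, labelled nontumorigenic, carry the gate Not CD24+Thy+CD45-, which does not settle whether their CD45 status was also set. Each population of mice 1, 2 and 3 was hybridised to 1 Affymetrix array, giving 3 arrays against 3, and the sources used here give neither age nor strain. Values are log2 expression values after RMA (robust multi-array average), and a difference is labelled tumorigenic minus labelled nontumorigenic of these log2 values.

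Planar cell polarity is the alignment of cells within the plane of a tissue. Celsr cadherins bind each other across neighbouring cells, Vangl proteins with Prickle assemble on one side of a cell and Frizzled with Dishevelled on the opposite side, and Ptk7, a catalytically inactive receptor kinase, takes part in the same processes and in Wnt signalling. A further system works through Dchs1 and Fat4, which bind each other as ligand and receptor between cells. In Drosophila, the counterpart of Fjx1 is a Golgi kinase that phosphorylates the cadherin repeats of both partners. In the mammary gland, where Wnt signals maintain basal and stem cell compartments, such proteins are studied for their role in duct growth and orientation.

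The labels were checked against the genes of the sort gate. Ptprc, which encodes CD45, read 10.21, 7.76 and 3.82 in mice 1, 2 and 3 under the tumorigenic label, and 2.33, 3.59 and 2.51 under the nontumorigenic label, which goes against a CD45-negative gate. Cd24a averaged 12.34 ± 0.50 and 12.90 ± 0.08, and Thy1 10.22 ± 0.79 and 9.99 ± 0.30, under the tumorigenic and the nontumorigenic label (SD, n = 3 each). The arrays are therefore called by their labels throughout. The 18S rRNA 3' control probe set was lower under the tumorigenic label (6.32 to 7.76) than under the nontumorigenic label (8.52 to 8.97), and the Gapdh 3' minus 5' contrast was highest, at 6.60, on the labelled tumorigenic array of mouse 2, against 2.41 to 3.81 on the other arrays. Array medians lay between 4.36 and 4.40.

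In outline, Dchs1 was higher and Celsr2 and Vangl2 were lower in each mouse under the tumorigenic label, with no overlap between labels, while the remaining genes overlapped. Of the 10 genes, 3 thus had ranges that did not overlap, 1 higher and 2 lower. Over all genes tested, 12.5% did not overlap, 6.90% on the higher and 5.59% on the lower side, and nothing is read from the set's count since the comparison had entered its choice. No member had an adjusted p below 0.05 in limma (0 of 10), and the same held for the background, with 0% of 15027 genes called, while 1277 genes had an unadjusted p below 0.05. The median difference was -0.043 over the 10 genes, with 4 positive and 6 negative, against 0.0051 over all genes. In size, 7 of the 10 differences were below 0.5 log2 units, as were 77.1% of all genes' differences.

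**Figure D1:**
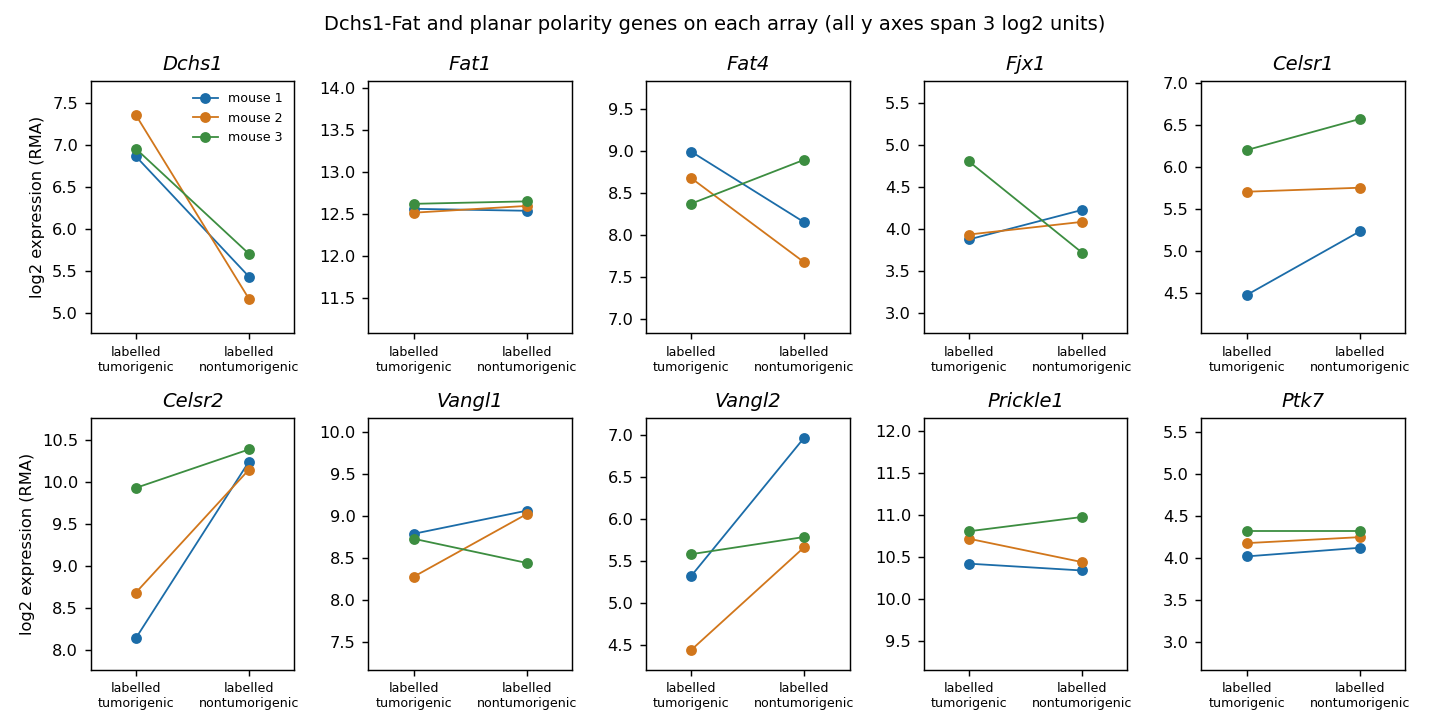
Log2 expression (RMA) of each of the 10 genes on the 6 arrays, with the labelled tumorigenic array left and the labelled nontumorigenic array right, and a line joining the arrays of 1 mouse. Dchs1 lies higher on all 3 left-hand points (6.87 to 7.36 against 5.17 to 5.71), Celsr2 and Vangl2 lie lower, and Fat1 and Ptk7 are nearly level.

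Dchs1, the giant cadherin that acts as the ligand of Fat4, read 6.87, 7.36 and 6.96 in mice 1, 2 and 3 under the tumorigenic label, and 5.44, 5.17 and 5.71 under the nontumorigenic label. All labelled tumorigenic arrays were above all labelled nontumorigenic ones, with a gap of 1.16 log2 units between the ranges. The means were 7.06 ± 0.26 and 5.44 ± 0.27 (SD, n = 3 each), a difference of 1.62 (SE 0.22, 95% interval 1.08 to 2.16) or 3.08-fold. Mouse 2 had the largest difference, 2.19, against 1.43 in mouse 1 and 1.25 in mouse 3. Without mouse 2 the mean difference was 1.34. Among all genes, 1.58% had a difference at least as large. Dchs1 is represented by a single probe set, so no other probe set could be compared.

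Markers of other cell types separated the labels together with Dchs1. The mean of 9 endothelial markers was 7.39, 7.79 and 7.11 in mice 1 to 3 under the tumorigenic label, and 6.27, 5.65 and 5.67 under the nontumorigenic label. All 9 had positive differences, and 8 did not overlap between labels. Mouse 2 was highest under the tumorigenic label and showed the largest difference of the 3 mice, 2.14 against 1.12 in mouse 1 and 1.44 in mouse 3. The labelled tumorigenic array of mouse 2 was also the one with the highest Gapdh 3' minus 5' contrast, 6.60. The part of this array's RNA quality in the Dchs1 and endothelial values was not tested. The mean of 7 leukocyte markers was 11.05, 9.62 and 5.91 under the tumorigenic label, and 4.19, 4.29 and 3.98 under the nontumorigenic label. It also separated the labels, and among the labelled tumorigenic arrays it was lowest in mouse 3. Of the adipocyte list, 4 of 4 tested markers had positive differences, and 2 did not overlap between labels. Their mean was 6.27, 8.97 and 6.83 in mice 1 to 3 under the tumorigenic label, and 4.49, 4.98 and 4.98 under the nontumorigenic label. As for the endothelial mean, mouse 2 was highest under the tumorigenic label. It also had the largest difference, 3.99 against 1.78 in mouse 1 and 1.86 in mouse 3. Whether any of these cell types had a part in the Dchs1 difference was not tested. In such bulk samples a change in the number of cells of a type and a change in RNA per cell cannot be told apart. On the log2 scale no marker has a true zero.

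The genes with array profiles most like that of Dchs1 were Ecscr, Cd93, Plvap, Ushbp1 and Aqp1. Likeness was measured as the root mean square difference between profiles centred on their own 6-array mean, over 15027 genes. It was 0.21 log2 units for Ecscr, an endothelial cell surface protein, 0.22 for Cd93, a surface receptor of endothelial and myeloid cells, and 0.23 for Plvap, a component of endothelial diaphragms. Ushbp1 and the water channel Aqp1 were both at 0.26. Ecscr read 7.89, 8.80 and 7.87 under the tumorigenic label, and 6.35, 6.01 and 6.93 under the nontumorigenic label. Mouse 2 was the highest on one side and the lowest on the other.

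Fat4, the receptor of Dchs1, did not separate the labels. It read 8.99, 8.67 and 8.37 in mice 1, 2 and 3 under the tumorigenic label, and 8.15, 7.67 and 8.89 under the nontumorigenic label. Mice 1 and 2 had differences of 0.841 and 1.003, whereas in mouse 3 the labelled tumorigenic array was the lower one, by -0.52. The mean difference was 0.44 (95% interval -0.41 to 1.29), and it depended on single animals, with 0.92 without mouse 3, 0.16 without mouse 2 and 0.24 without mouse 1. A further Fat4 probe set was dimmer, with a mean of 4.31, and had a difference of -0.13. The mean of 7 fibroblast markers also changed sign in mouse 3: it differed by 1.05 and 0.44 in mice 1 and 2 and by -1.19 in mouse 3, with levels of 9.01 to 10.87 under the tumorigenic label and 9.82 to 10.37 under the nontumorigenic label. Its part in the Fat4 values was not tested. The profiles nearest to Fat4 were those of Med12l, Fancf and Nr1d1, at 0.10, 0.11 and 0.12.

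Fat1, a large cadherin linked to actin organisation, was level across the arrays. It read 12.57, 12.52 and 12.63 under the tumorigenic label, and 12.54, 12.60 and 12.66 under the nontumorigenic label, a difference of -0.029 (95% interval -0.37 to 0.31).

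Fjx1 was dim and differed among mice. It read 3.87, 3.93 and 4.80 in mice 1 to 3 under the tumorigenic label, and 4.22, 4.08 and 3.71 under the nontumorigenic label, so that mouse 3 alone had a positive difference, 1.08. The mean difference was 0.19 (95% interval -0.54 to 0.93). Its other probe sets, with means of 3.91 and 3.07, had differences of -0.0044 and -0.61, so the positive sign rests on 1 of 3 probe sets. In mouse 3 these other probe sets differed by 0.18 and 0, against 1.08 for the one used. The basal and myoepithelial marker mean was highest on the same array, at 10.35, against 9.03 and 9.43 in mice 1 and 2 under the tumorigenic label and 8.97 to 9.35 under the nontumorigenic label. Its relation to Fjx1 was not tested. The profiles most like that of Fjx1 were those of the neurotrophin gene Bdnf at 0.10, and of the transcriptional coactivator gene Yap1 and of Alkbh6, both at 0.11.

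Celsr2, an adhesion receptor that carries cadherin repeats and bridges neighbouring cells, was the gene of the set with the lowest difference. It read 8.14, 8.68 and 9.93 in mice 1, 2 and 3 under the tumorigenic label, and 10.24, 10.15 and 10.39 under the nontumorigenic label. The labelled nontumorigenic arrays were tightly grouped and the labelled tumorigenic arrays spread widely, all below them, with mouse 3 only 0.22 log2 units under the lowest. The means were 8.92 ± 0.92 and 10.26 ± 0.12 (SD, n = 3 each), a difference of -1.34 (SE 0.45, 95% interval -2.44 to -0.24) or a 2.53-fold lower level. By mouse the differences were -2.10, -1.46 and -0.46, while Ptprc read 10.21, 7.76 and 3.82 on the labelled tumorigenic arrays of these mice. The part of leukocyte content in the Celsr2 values was not tested. The dimmer Celsr2 probe set had the same sign, at -0.51, and its ranges overlapped. Of all genes, 1.26% had a difference as low or lower.

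Vangl2, a membrane protein of the core polarity complex that recruits Prickle, was also lower in each mouse. It read 5.32, 4.44 and 5.58 in mice 1, 2 and 3 under the tumorigenic label, and 6.96, 5.66 and 5.78 under the nontumorigenic label. The ranges were separated by only 0.084 log2 units, and the highest value came from 1 array, labelled nontumorigenic in mouse 1. The means were 5.11 ± 0.60 and 6.14 ± 0.72 (SD, n = 3 each), a difference of -1.03 (SE 0.46, 95% interval -2.14 to 0.088), and -0.61 without that array. With the mouse as a replicate block the interval was -1.93 to -0.12. By mouse the differences were -1.65, -1.22 and -0.20. The lowest value, 4.44, came from the labelled tumorigenic array of mouse 2, which had the highest Gapdh 3' minus 5' contrast, 6.60. Leaving out that mouse 2 array gave a difference of -0.69. The part of its RNA quality in the Vangl2 values was not tested. The other Vangl2 probe sets did not follow: one had a difference of -0.16, and another, with a mean of 2.89 below the dim cut of 2.98, had one of 0.33.

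Luminal epithelial markers were also lower under the tumorigenic label. Their mean over 8 genes was 6.21, 8.21 and 8.07 in mice 1 to 3 under the tumorigenic label, and 9.48, 9.41 and 9.69 under the nontumorigenic label. All 8 had negative differences, and 6 did not overlap. For Celsr2 and the luminal mean alike, mouse 1 under the tumorigenic label was the lowest array, but mouse 3 was nearer to the other label for Celsr2 (-0.46) than for the luminal mean (-1.62). Among the labelled tumorigenic arrays, mouse 2 had the lowest Vangl2 (4.44) and the highest luminal mean (8.21). The part of luminal cell content in either gene was not tested. The profiles most like that of Celsr2 were those of the protease inhibitor gene Spint2 at 0.12, and of Tob1 and Kctd14, both at 0.16. Nearest to Vangl2 were Mbnl3 and the condensin subunit gene Ncapg2, both at 0.16, and Kantr at 0.17.

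**Figure D2:**
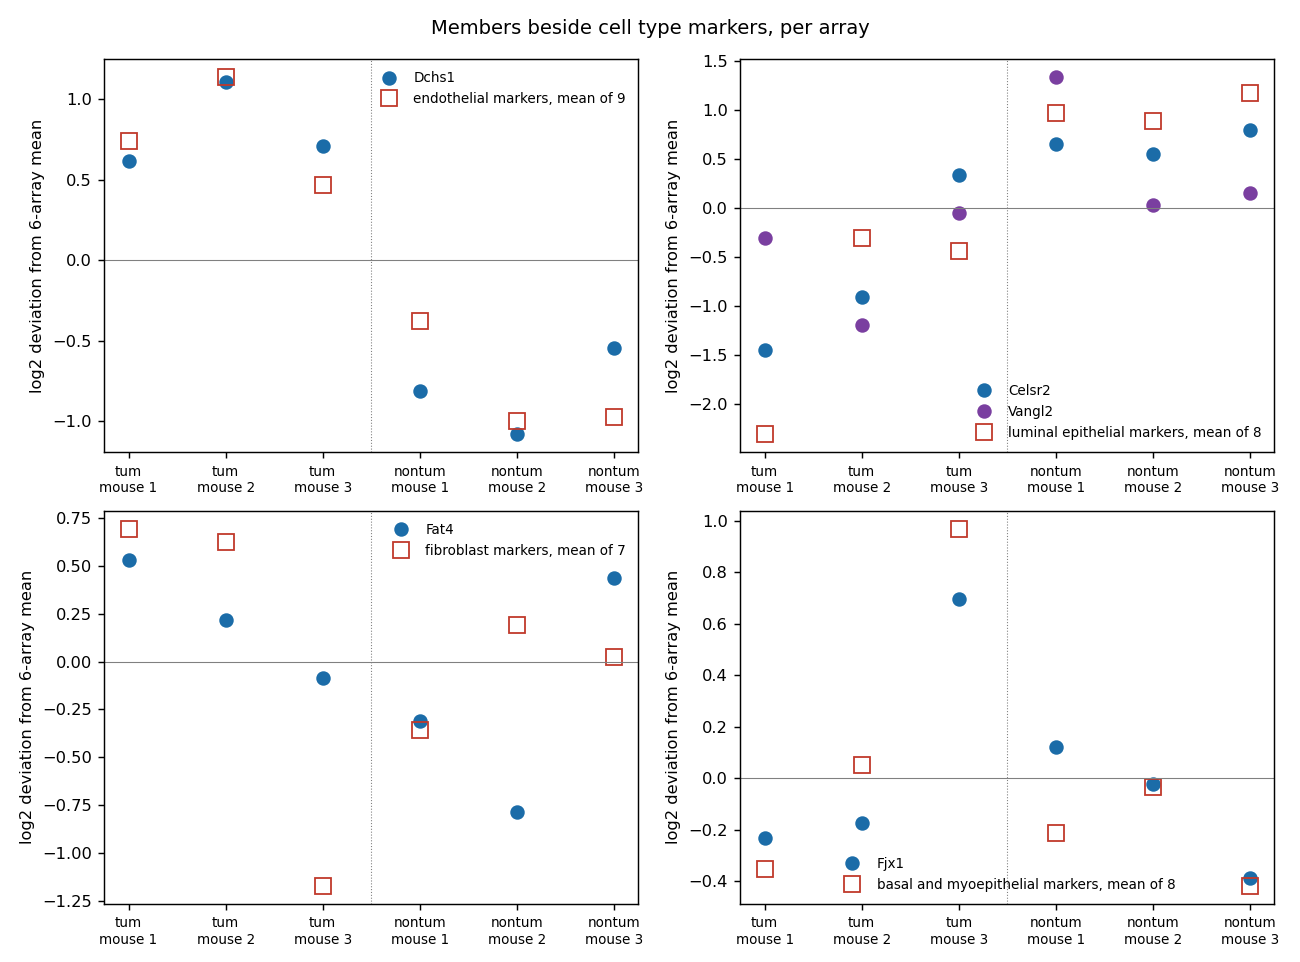
Deviation of each array from the 6-array mean, in log2 units, for members (filled circles) and for the mean of a cell type marker list (open squares), with the 3 labelled tumorigenic arrays (tum) left of the dotted line and the 3 labelled nontumorigenic arrays (nontum) right of it. The pairings of genes with lists were picked after the values were seen. Dchs1 and the endothelial mean lie above 0 on all 3 left-hand arrays, and Celsr2 and the luminal mean are both lowest in labelled tumorigenic mouse 1, at 8.14 and 6.21 before centring.

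Celsr1, a paralogue of Celsr2, differed more among mice than between labels. It read 4.48, 5.71 and 6.20 in mice 1, 2 and 3 under the tumorigenic label, and 5.23, 5.75 and 6.57 under the nontumorigenic label. Both populations had mouse 1 lowest and mouse 3 highest, and each mouse had a negative difference (-0.76, -0.048 and -0.37). The mean difference of -0.39 had a 95% interval of -1.70 to 0.92, and with the mouse as a replicate block one of -0.98 to 0.20. The mean difference became 0.10 when mouse 1 was dropped from the tumorigenic label alone.

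The remaining core genes showed small differences. Vangl1, the paralogue of Vangl2, read 8.27 to 8.78 under the tumorigenic label and 8.44 to 9.06 under the nontumorigenic label, a difference of -0.24 (95% interval -0.85 to 0.36), and its other probe set had 0.065. Prickle1, a LIM domain protein that acts with Vangl2, read 10.43 to 10.81 and 10.35 to 10.98 under the tumorigenic and the nontumorigenic label, a difference of 0.063 (95% interval -0.50 to 0.62). Its dimmer probe sets, with means of 5.17 and 4.01, had differences of -0.53 and -0.29, opposite in sign. Ptk7 read 4.01 to 4.32 and 4.12 to 4.32, a difference of -0.058 (95% interval -0.45 to 0.33), at a dim level where a difference would be hard to see. For Prickle1, Vangl1 and Ptk7, an overlap of ranges does not show that the levels were equal, and the intervals give the sizes that remain possible.

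**Figure D3:**
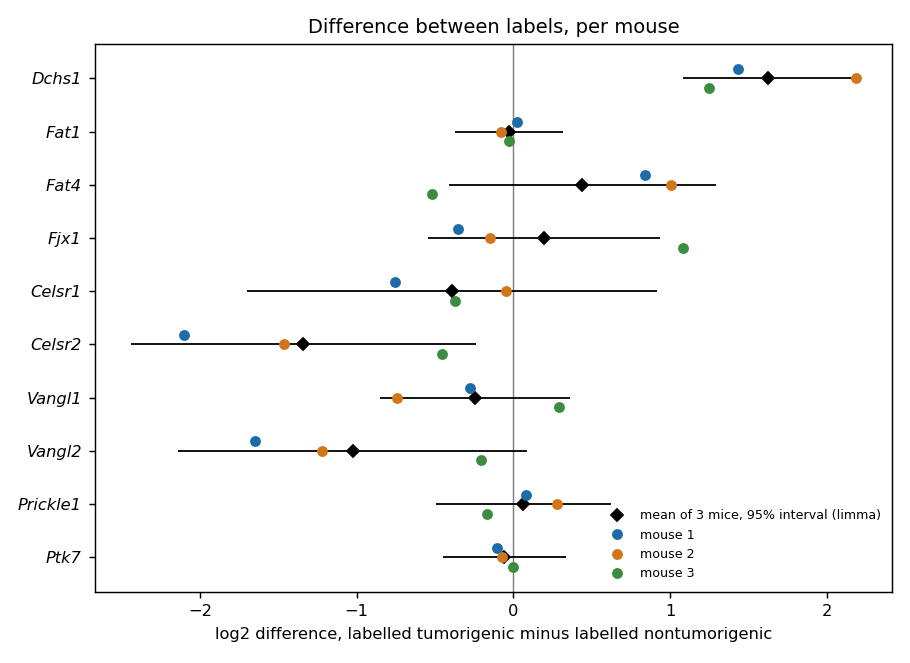
Difference of log2 expression, labelled tumorigenic minus labelled nontumorigenic, for each gene and mouse (coloured circles), with the mean of 3 mice and its 95% interval from limma without a mouse term (black). Dchs1 is positive in all 3 mice (1.25 to 2.19), Celsr2 and Vangl2 are negative in all 3, and mouse 3 has the opposite sign to mice 1 and 2 for Fat4, Fjx1, Vangl1 and Prickle1.

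Mouse 3 was the animal in which the genes departed most often from the pattern of the others. Its sign was opposite to both other mice in Fat4, Fjx1, Vangl1 and Prickle1, and it had the smallest difference of the 3 mice in Dchs1, Celsr2 and Vangl2. Its labelled tumorigenic array was also the one with the lowest Ptprc (3.82) and the highest basal marker mean (10.35) of the 3. Set alone against the 3 labelled nontumorigenic arrays, as an alternative chosen after seeing the data, that array lay above all of them for Dchs1 and Fjx1 and below all of them for Celsr2 and Vangl2. With a single array on one side, 25.4% of all genes lay above and 22.1% below.

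The 19 probe sets of the set gave agreeing signs for only Celsr2 among the 6 genes with several probe sets. Of these genes 5 had probe sets of both signs, and the brighter probe set was the one used. The differences of Dchs1, Fat1, Celsr1 and Ptk7 rest on 1 probe set each.

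**Figure D4:**
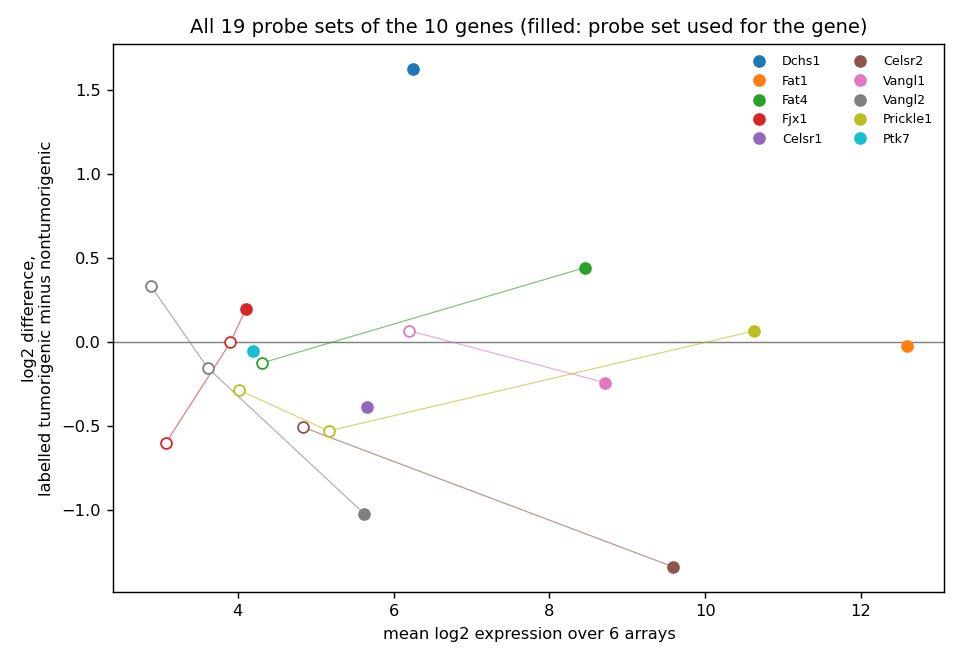
Difference (labelled tumorigenic minus labelled nontumorigenic, log2 units) against mean log2 expression over 6 arrays for all 19 probe sets, with lines joining probe sets of 1 gene and filled circles for the one used. The dimmer probe sets of Vangl2 (-0.16 and 0.33) lie far from the used one (-1.03), and both Celsr2 probe sets are negative.

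Short promoter stretches are shown for the 4 genes with a CACCTG E-box, Celsr2, Vangl2, Fat1 and Prickle1. This motif, read on either strand as CACCTG or CAGGTG, is the sequence that the repressors of the Snail and Zeb families bind. It was picked after these promoters had been looked at. Promoters were RefSeq windows of 250 bases before to 50 after a start, build GRCm38.p6, which held 7 promoters for 6 of the 10 genes (Fat1, Fat4, Celsr2, Vangl2, Prickle1 and Ptk7). Each line gives 30 bases, 5′ to 3′ on the gene's strand, with the motif in capitals. The Celsr2 stretches are at chr3:108415734-108415763 and chr3:108415592-108415621 (minus strand), that of Vangl2 at chr1:172027350-172027379 (minus strand), that of Fat1 at chr8:44950181-44950210 (plus strand) and that of Prickle1 at chr15:93519519-93519548 (minus strand).
Celsr2, distal: acgctcagagcgCAGGTGgaagcgcagcgt
Celsr2, proximal: cagtgggacgtaCAGGTGgcccccggggac
Vangl2: gccgggaggcggCACCTGggagctctctcc
Fat1: cttcttctattaCAGGTGgccaggagttaa
Prickle1: cgcccgcgcgtgCACCTGcgggcgggggaa

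The motif was thus found in 4 of 7 promoters and in 20.2% of all 32851 promoters of the same length. Among the 4 were promoters of Fat1 and Prickle1, whose differences were -0.029 and 0.063. The other Prickle1 promoter had 0 matches. A Tcf core, CTTTGA or TCAAAG, was found in 0 of the 7 and in 16.0% of all promoters. These matches are descriptions of the windows and say nothing of binding.

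Other planar polarity genes were read from 5 lists of 38 genes, of which 34 were tested. Of these, 16 had positive and 18 negative differences, with a median of -0.014, 0 passed the limma adjusted threshold, and 1 was higher and 2 lower without overlap, beside the 12.5% of all genes noted above. Among non-canonical Wnt ligands and receptors, Wnt5a, a ligand of polarity signalling, read 8.97, 8.15 and 8.57 under the tumorigenic label, and 9.11, 9.09 and 9.05 under the nontumorigenic label, a difference of -0.52 with a gap of 0.071 between the ranges. Of its 4 probe sets 1 was positive. Wnt5b had a difference of -0.82 with overlapping ranges, the Wnt receptor gene Ryk 0.19, and the Wnt5a receptor Ror2 0.44, whose ranges were only 0.0061 log2 units apart. Of the 2 Ror2 probe sets 1 was positive.

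In the core partners, the Dishevelled gene Dvl1 had a difference of -0.44 and Dvl2 one of 0.48, Prickle2 0.039 and the Frizzled receptor gene Fzd6 0.010, and the list median over 9 tested genes was 0.010. Among effectors, the small GTPase gene Rhoa had 0.27, its kinase Rock1 -0.085, the ubiquitin ligase Smurf2 0.024, Intu, a protein of cilium formation, 0.59, and the formin Daam2 -0.52. The median over 9 tested genes was 0.024. Positive differences were found in 1 of 2 Dvl2 probe sets and in 2 of 4 Intu probe sets. Among Fat signalling partners, Taok1, a kinase that feeds into the Hippo pathway, read 8.84 to 9.04 under the tumorigenic label and 9.23 to 9.51 under the nontumorigenic label, a difference of -0.37. Limd1 had -0.11, the scaffold Dlg5 -0.17 and Lix1l 0.60, with a list median of -0.052. Among the paralogues only Fat2 (-0.25) and Celsr3 (0.37) were tested, and Celsr3 was near the dim cut. None of the 34 genes had a difference as far from 0 as those of Dchs1, Celsr2 or Vangl2, and those had been known when the set was chosen.

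**Figure D5:**
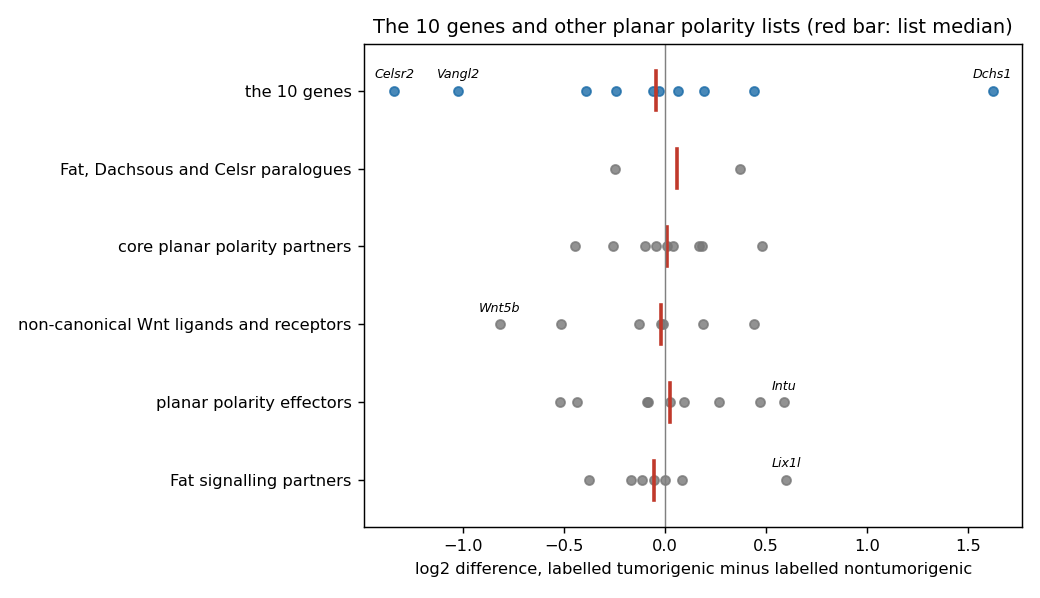
Difference of log2 expression, labelled tumorigenic minus labelled nontumorigenic, for the 10 genes (blue) and for the tested genes of 5 further lists (grey), 1 point a gene, with the list median as a red bar. Names are given beyond 0.55 log2 units; the list medians lie between -0.052 and 0.061.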

How the data were processed

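Transcript levels of 6 Affymetrix arrays were used as deposited. The authors deposited a log2 value for each probe set and array, normalised with RMA per the submitters' processing notes; its version is not given in the sources used here, and the log2 scale was read from the values. RMA brings arrays to a common distribution, so a shift shared by most transcripts would be removed. Per the labels' protocols, RNA was amplified before labelling.

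Of 45101 probe sets, 64 controls were left out, and the 25% with the lowest mean (below log2 2.98) were left out, which kept 33778. By the platform annotation 34945 non-control probe sets had 1 symbol, 932 several and 9160 none; 34741 of the single symbols matched a RefSeq table (GRCm38.p6) by Entrez identifier with 0 symbols changed. Each gene was its brightest probe set, giving 15027 genes. All genes were fitted in limma 3.58.1 (R 4.3.3), with 6 arrays and no covariate, and Benjamini-Hochberg adjustment at 0.05. Intervals are 95% limma intervals, and precision is limited by the number of arrays. The fit was tested on simulated data in which all genes had the same SD and arrays were not paired by mouse. That test does not show how the fit performs on the present arrays, where the SD differed among genes and labels. An exact permutation test of 3 against 3 cannot go below 0.1 and was not used.

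The mouse numbers pair the arrays, since both populations came from the same animal by the labels. Deviations of same-mouse arrays from their label means correlated across genes at 0.079, 0.14 and 0.086, against -0.083 to -0.010 for other pairs. These correlations are weak. Deviations from a label mean cancel out within the label, so positive same-mouse values push other pairs to negative ones. The contrast in sign is therefore partly fixed by the centring. The members and lists were chosen with earlier results of these data known. Genes named besides the 10 were, per pathway list, the 3 with the highest mean and those with the largest and smallest difference, the sort markers, and the nearest profiles. Marker lists of leukocytes, T and NK cells, endothelium, fibroblasts, pericytes, luminal and basal epithelium and adipocytes were averaged per array. Alternatives were the mouse as a block, other dim filters, normalisations, priors and probe set rules, and leaving out arrays or mice.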

Additional observations from a re-analysis of the deposited data

How the results depend on the processing

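With the mouse as a replicate block, 0 genes and 0 members had a limma adjusted p below 0.05, as without it, and the difference of Dchs1 was 1.62 with an SE of 0.26. Of all genes, 1 passed with no dim filter and 1 with probe sets averaged per gene, in both cases Ramp2, which is no member, and 0 to 18 passed when 1 array or 1 mouse was left out, the 18 without the labelled tumorigenic array of mouse 3. Members past the threshold numbered 0 under every alternative run. The number of members without overlap was 3 in most alternatives and 2 with the mean of probe sets (Vangl2 then overlapped). It was 4 with labelled tumorigenic mouse 3 alone, where 25.4% of all genes lay above and 22.1% below. When an array or mouse was left out it was 3 to 6. The share of all genes without overlap was 11.2% to 14.5% under other dim filters, normalisations and probe set rules (13.2% with averaged probe sets). This share was 19.2% to 31.7% when 1 array was left out, and 29.6%, 33.3% and 41.6% without mouse 1, 2 or 3. A steady count of 3 thus stands beside a changing share, and nothing is read from it. Members without overlap numbered 5 without the labelled nontumorigenic array of mouse 3 (21.4% of all genes) and 6 without mouse 3 (41.6%). Over 17 alternatives each, Dchs1, Fat1, Fat4, Celsr2 and Vangl2 kept their sign. Of 243 differences and list medians under alternatives, 5 moved by more than the spread within labels. Many of these could not move: the mouse block and the other prior leave a difference as it is. The dim filters left the differences of the members they kept unchanged, and probe set rules cannot alter a gene with 1 probe set. Fjx1 and Ptk7 were not kept when the lowest 50% of probe sets were left out, so each has 16 alternatives. Fat1 stayed near 0, at -0.057 to -0.0012 when arrays or mice were left out. When arrays or mice were left out, the differences ranged from 1.34 to 1.81 for Dchs1, -1.85 to -0.95 for Celsr2, -1.44 to -0.61 for Vangl2 and 0.16 to 0.92 for Fat4. With the mean of probe sets, Celsr2 had -0.93, Vangl2 -0.59, Fat4 0.16, Fjx1 -0.14 and Prickle1 -0.25. The sign changed under 4 of 16 alternatives for Fjx1, 6 of 17 for Prickle1, 2 of 17 for Vangl1, 1 of 17 for Celsr1 and 1 of 16 for Ptk7. The causes of these changes were not tested.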

Other observations

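Further marker lists did not separate the labels. The mean of 6 T and NK cell markers was 7.64, 4.38 and 3.22 in mice 1, 2 and 3 under the tumorigenic label, and 4.02, 4.26 and 3.97 under the nontumorigenic label, so mouse 1 stood apart. The pericyte mean of 5 genes differed by 0.48 in mouse 1, -0.065 in mouse 2 and -0.40 in mouse 3, and mouse 3 had the lowest level in both populations.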
